A study of Mus musculus with 12 samples.

Results

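The comparison described here sets mouse pre-B leukemia cells in which Phf6 was targeted with the first of 2 guide RNAs (KO_sg1, labelled Null for Phf6, 3 libraries) against cells of the same kind labelled Wild-type for Phf6 (WT, 3 libraries). Both groups share the C57BL/6J background, the lack of p19 and the overexpression of BCR-ABL1, and they are 6 of the 12 RNA sequencing libraries of the series. The other libraries are a knockout with a second guide (KO_sg4, 3 libraries, also labelled Null) and a hairpin knockdown (KD, 3 libraries). They also enter the low-count filter, the scaling and the shared fit behind every test against WT. Otherwise they are used for direct tests against KO_sg1 and for some levels given beside it. The labels give no animal or age, and do not say whether KO_sg1 is 1 clone or a pool, or whether replicate libraries stem from different cultures. The p-values below therefore reflect library-to-library spread that may be only technical, and loss of Phf6 cannot be told apart from other differences between the KO_sg1 and WT lines. All genes that passed a low-count filter were compared: 12335 of the 23224 in the table.

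PHF6 is a chromatin-binding protein of the nucleus and nucleolus with a pair of extended PHD zinc fingers. It has been found together with subunits of the NuRD nucleosome remodelling complex and with factors of ribosomal RNA transcription, and it is mutated in human T-cell and myeloid leukemias. Pre-B cells are B-lymphocyte precursors that carry the surrogate light chain on their surface, depend on factors such as PAX5, EBF1 and IKAROS, and have not yet become antigen-presenting mature B cells. BCR-ABL1 is the fusion kinase of Philadelphia chromosome leukemia, and p19 is 1 of the proteins encoded by Cdkn2a. The title of the series asks about B-cell identity.

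Total estimated counts lay between 20382328 and 36032369 over the 12 libraries, so that 3 counts corresponded to 0.0833 to 0.147 CPM, which are counts scaled to a common library size, and intervals and floors given below cover counting error only. The 7 pre-B markers summed here (Cd79a, Cd79b, Igll1, Vpreb1, Pax5, Ebf1 and Il7r) came to between 5028 and 5599 CPM in KO_sg1 libraries, against 5307 to 5713 CPM in WT libraries, and none was at 0. The ribosomal RNA precursor Rn45s held 3.57%, 3.64% and 6.4% of the counts in KO_sg1 and 2.43%, 0.915% and 3.94% in WT. The Y-linked genes Ddx3y, Kdm5d, Uty and Eif2s3y summed to 0.0377, 0.0902 and 0.05 CPM of the total in KO_sg1, 0.0331, 0.133 and 0.143 CPM in KO_sg4 and 113, 119.6 and 116 CPM in KD, against 75.1, 74.7 and 85.95 CPM in WT. The origin of the lines and the targeting of Phf6 cannot be told apart in any level that KO_sg1 and KO_sg4 share. The first principal component held 61.8% of the variance and placed KO_sg1 libraries at 50.3 to 51.8 and WT libraries at -16.9 to -14.9. The part of these library differences in the results below was not tested.

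Phf6 RNA was 3.23, 3.24 and 3.74 CPM in KO_sg1, against 34.2, 33.9 and 35.3 CPM in WT. The groups did not overlap, and Phf6 fell by 3.35 ± 0.14 on the log2 scale (SE, adjusted p = 1.82e-10). Reads of Cdkn2a remained in both groups, at 54.3 ± 4.38 CPM in KO_sg1 and 80.5 ± 4.43 CPM in WT (SD, n = 3 each), a fall of 0.57 ± 0.12 on the log2 scale (adjusted p = 0.00187). Abl1 and Bcr, the genes joined in the human fusion, were not called (log2 fold changes -0.16, adjusted p = 0.124, and 0.07, adjusted p = 0.525).

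Against WT, 4784 of the 12335 genes passed the test (38.8%), 2082 of them higher (16.9%) and 2702 lower (21.9%) in KO_sg1. Most differences were small: the median absolute change of a called gene was 0.445 on the log2 scale, and the median over all tested genes was -0.02. The large differences were mostly falls. At least 2-fold changes numbered 955 falls (7.74% of the tested genes) and 243 rises (1.97%), and at least 10-fold changes 291 falls (2.36%) and 25 rises (0.203%). The split of the calls between directions depended on the scaling: 43.5% of them were higher with TMM factors, 52.6% with DESeq2's size factors and 30% with library totals alone, and the median of all genes moved to 0.02 and to -0.10 with these scalings.

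**Figure D1:**
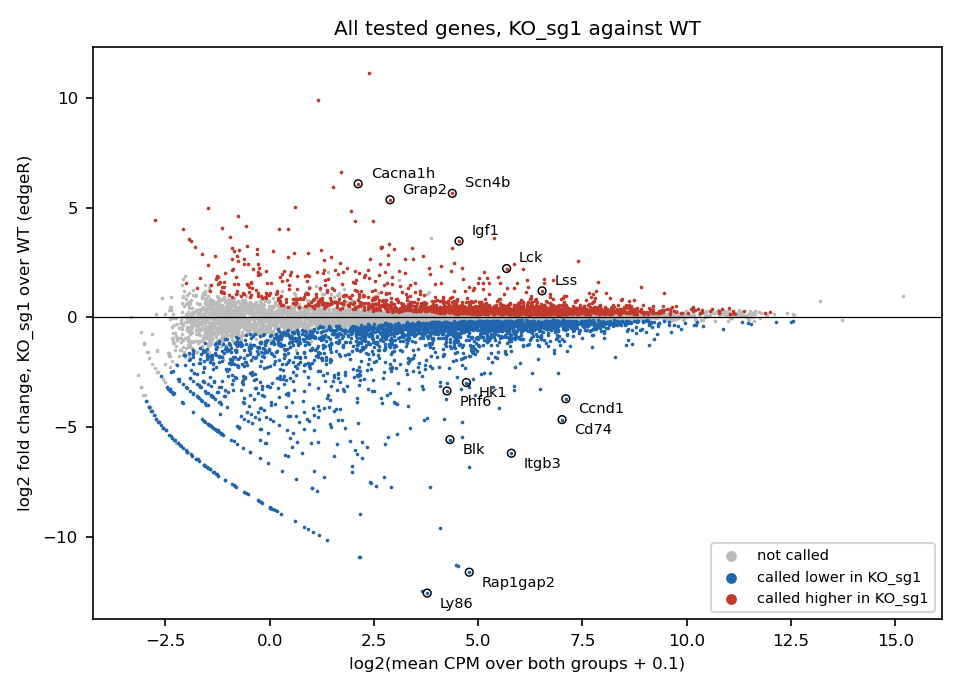
Each point is a tested gene, with the log2 of the mean CPM over both groups plus 0.1 on the horizontal axis and the log2 fold change of KO_sg1 over WT on the vertical axis, grey where not called, blue where called lower and red where called higher. Large changes point mostly downwards (291 falls and 25 rises of at least 10-fold), and the curved rows at the lower left are genes at or near 0 counts in KO_sg1, whose fitted change depends on the prior count.

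Falls were concentrated among genes of low level. Of the 1476 genes whose higher group mean lay between 1 and 5 CPM, 20.3% fell and 4.61% rose by at least 2-fold, whereas of the 2192 genes above 100 CPM 1.51% fell and 0.730% rose. A gene that passed the filter only through the group where it was high had to differ, which bears on the lowest classes. Of the 291 falls of at least 10-fold, 66 were of genes with at least 5 CPM in WT and 225 of genes below that level.

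**Figure D2:**
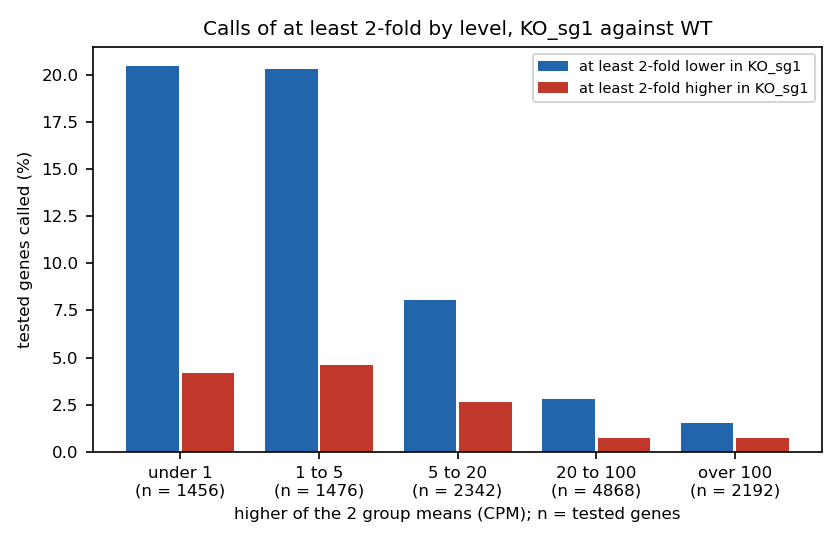
Bars give the percentage of tested genes called at least 2-fold lower (blue) or at least 2-fold higher (red) in KO_sg1 than in WT, for 5 classes of the higher group mean in CPM. The share of falls is 20.5% below 1 CPM and 1.51% above 100 CPM, and in each class it is larger than the share of rises.

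The deepest falls left genes with almost no reads in KO_sg1. There were 19 called genes with at least 5 CPM in WT and under 0.1 CPM in KO_sg1, and only 3 the other way round. Ly86, which encodes the MD-1 protein that binds the Toll-like receptor relative CD180, had no count in any KO_sg1 library, against 27.5, 27.4 and 26.7 CPM in WT, and was at least 695-fold lower when 3 counts over the group are set as the floor. Rap1gap2, which switches off the small GTPase Rap1, had 1 count in KO_sg1, against 53.8, 55.1 and 55.9 CPM in WT, a ratio of 4205 (95% interval 754 to 166100). Olfm1, a secreted glycoprotein, had 1 count in KO_sg1, against 43.2, 44.9 and 44.4 CPM in WT, a ratio of 3382 (607 to 133600). For each of these genes every KO_sg1 library lay far below every WT library. Cd180 itself, the partner of Ly86, was 26.2, 31.1 and 23.8 CPM in KO_sg1, against 42.7, 42.0 and 42.4 CPM in WT, and fell by 0.64 ± 0.10 log2 units (adjusted p = 0.000128).

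Other genes that were lost or nearly lost encode proteins of varied function. Without a count in KO_sg1 were Stc2, a secreted glycoprotein (at least 222-fold lower), Bahcc1, a chromatin protein (at least 223-fold lower), Axl, a receptor tyrosine kinase of macrophages (at least 128-fold lower), and Kdm5d, a histone demethylase gene of the Y chromosome (at least 640-fold lower). Ddx3y, a Y-linked RNA helicase, had 1 count (ratio 3451, 95% interval 619 to 136400), and Uty, a Y-linked relative of a histone demethylase, was 0.043 ± 0.0443 CPM in KO_sg1 and 10.5 ± 1.13 CPM in WT (SD, n = 3 each). Of 4 tested genes placed on the Y chromosome these 3 fell, and Xist was not called (log2 fold change -0.07, adjusted p = 0.932). Ank, a transporter of pyrophosphate and ATP, had a ratio of 859.8 (294 to 4172), Gmpr, an enzyme of guanine nucleotide salvage, fell by 7.72 ± 0.25 log2 units (adjusted p = 1.96e-11), and Plau, the urokinase protease, fell by 7.66 ± 0.32 (adjusted p = 2.09e-10). S100a4, a calcium-binding protein, fell by 7.71 ± 0.19 (adjusted p = 1.06e-12), and Fcgr1, the high-affinity Fc receptor of myeloid cells, fell by 7.29 ± 0.18 (adjusted p = 1.06e-12).

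Fewer genes appeared. The long RNA 6330403A02Rik and the membrane protein gene Plxdc2 had no count in WT and reached 10.2 ± 0.886 and 4.28 ± 0.421 CPM in KO_sg1 (SD, n = 3), at least 281-fold and at least 122-fold higher. Scn4b, a sodium channel subunit, was 39.8, 46 and 35.9 CPM in KO_sg1, against 0.859, 0.703 and 0.86 CPM in WT, a rise of 5.65 ± 0.17 on the log2 scale (adjusted p = 7.75e-12). Cacna1h, a T-type calcium channel, rose by 6.09 ± 0.26 (adjusted p = 2.6e-10), and Zfp462, a zinc finger protein, by 6.64 ± 0.48 (adjusted p = 8.09e-08). Igf1, the insulin-like growth factor, was 42.5, 42.2 and 42.7 CPM in KO_sg1, against 3.74, 3.38 and 4.34 CPM in WT, and rose by 3.48 ± 0.09 (adjusted p = 1.61e-12). None of these groups overlapped.

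The remaining strongest rises included signalling genes of lymphocytes. Grap2, an adaptor of T-cell receptor signalling, rose by 5.36 ± 0.20 log2 units (adjusted p = 8.23e-11), and Lax1, an adaptor that dampens antigen receptor signals, by 5.96 ± 0.35 (adjusted p = 7.76e-09). Rgs16, an inhibitor of G-protein signalling, rose by 4.85 ± 0.30 (adjusted p = 1.21e-08), Pde4d, which breaks down cyclic AMP, by 4.38 ± 0.22 (adjusted p = 1.2e-09), and Megf10, an engulfment receptor, by 4.39 ± 0.19 (adjusted p = 2.59e-10). Eid2, Ggnbp1, Gimap3 and Pcdhgc3 rose by 3.12 to 3.36. Reads of Gimap3 and Pcdhgc3 can be shared with close relatives, and those of H2-Q7 with near-identical MHC copies: H2-Q7 was 10.2, 10.7 and 12.8 CPM in KO_sg1, against 0.824, 2.71 and 0.117 CPM in WT, so its rise of 3.14 ± 0.43 (adjusted p = 5.11e-05) is uncertain.

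**Figure D3:**
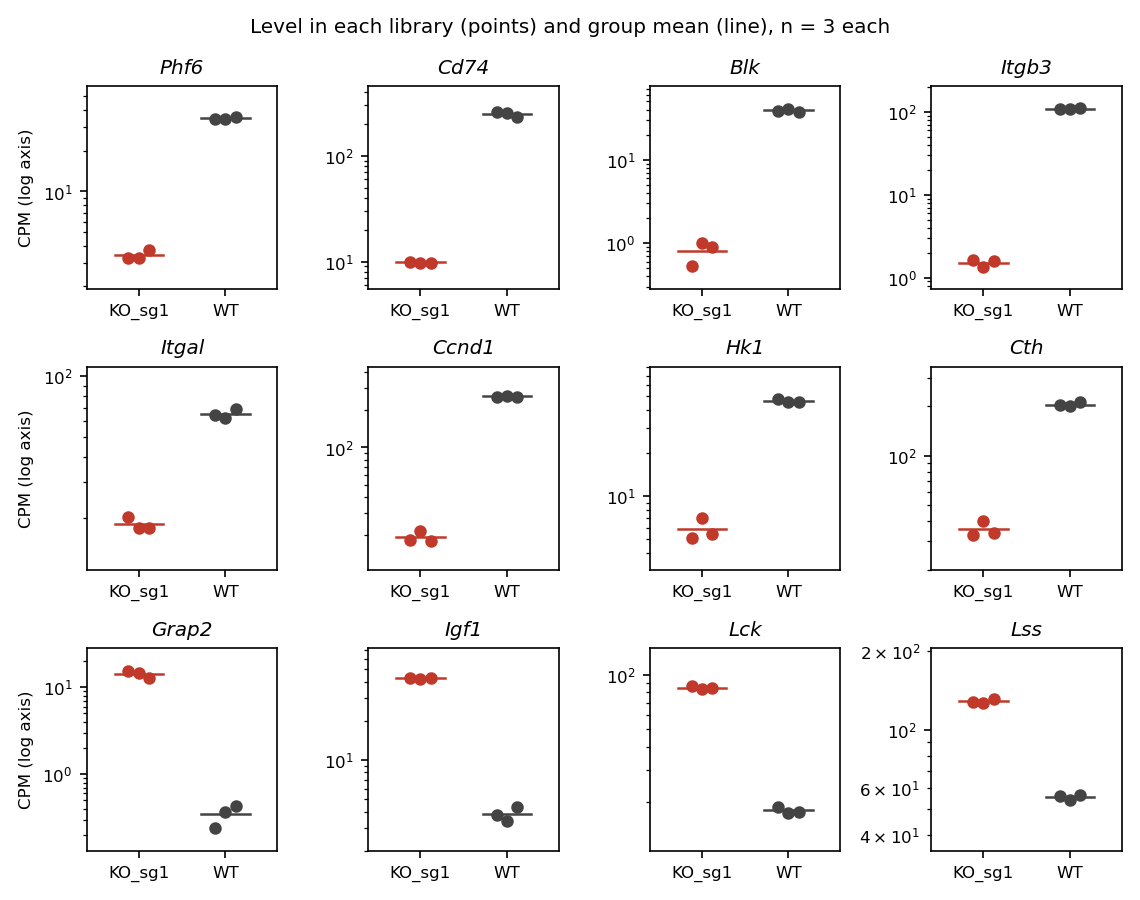
CPM on a log axis for 12 genes, with each point a library (3 in KO_sg1 on the left of each panel, 3 in WT on the right) and each line the group mean. Phf6, Cd74, Blk, Itgb3, Itgal, Ccnd1, Hk1 and Cth lie lower in all 3 KO_sg1 libraries than in any WT library, and Grap2, Igf1, Lck and Lss lie higher in all 3.

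Genes for antigen presentation by MHC class II, which B cells and myeloid cells use to show peptides to helper T cells, were mostly lower in KO_sg1. Of 15 tested, 9 fell and 4 rose (median log2 fold change -1.14, beside -0.02 over all genes), and the rises numbered 2 with library totals or when any library other than KO_sg1 replicate 2 was left out. Cd74, the invariant chain, was 9.95, 9.76 and 9.71 CPM in KO_sg1, against 258, 254 and 231 CPM in WT, and fell by 4.66 ± 0.08 log2 units (adjusted p = 5.42e-14). The chains H2-Aa, H2-Ab1 and H2-Eb1 fell by 4.70 ± 0.18, 4.50 ± 0.28 and 4.27 ± 0.26 (adjusted p = 1.15e-10, 1.6e-08 and 1.39e-08). Ciita, the coactivator on which class II transcription depends, was 0.0615 ± 0.0245 CPM in KO_sg1 and 1.85 ± 0.423 CPM in WT (SD, n = 3 each) and fell by 4.74 ± 0.39 (adjusted p = 2.85e-07). Ctss, the protease that trims the invariant chain, fell by 1.14 ± 0.06 (adjusted p = 2.12e-09). H2-Oa and H2-DMb2, parts of the peptide-loading regulators, were not called (-0.22, adjusted p = 0.153, and 0.15, adjusted p = 0.629). Myeloid cells also express class II: the myeloid markers Csf1r, Itgam, Lyz2 and Mpo summed to 5.08 to 6.84 CPM in KO_sg1 libraries, against 14.4 to 15.3 CPM in WT libraries, and their part in these falls was not tested. In bulk RNA, fewer cells of a type and less RNA per cell cannot be told apart.

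The promoters of class II genes carry a CCAAT box as part of a conserved upstream module. RefSeq promoter windows (GRCm38.p6, 250 bases before to 50 after a gene start) were searched on both strands. CCAAT was found in 10 of the 12 windows of the 11 matched class II genes (83.3%), against 38.4% of the 11013 windows of tested genes. It was also in 65.4% of the windows of the cholesterol synthesis and uptake genes and 61.3% of those of the amino acid stress genes, both described below. The window of H2-Aa, at chr17:34287774-34288073 on the minus strand, is shown because this chain was among the deepest falls of the list, with CCAAT, which lies on the other strand, in capitals as ATTGG:
H2-Aa: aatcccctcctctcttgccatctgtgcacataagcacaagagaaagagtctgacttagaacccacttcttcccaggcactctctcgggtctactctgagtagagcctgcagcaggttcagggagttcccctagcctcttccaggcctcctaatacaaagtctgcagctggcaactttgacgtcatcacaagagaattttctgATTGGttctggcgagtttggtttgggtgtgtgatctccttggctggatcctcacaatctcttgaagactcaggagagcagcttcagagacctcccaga

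Class I genes showed small changes. Of 17 genes of MHC class I and peptide loading, 6 rose and 1 fell (41.2% called, beside 38.8% over all genes, with a median of 0.13). There were 3 rises when KO_sg1 replicate 3 or WT replicate 3 was left out. No fall remained when KO_sg1 replicate 2 or 3 or WT replicate 2 was left out. Nlrc5, the class I transactivator, rose by 0.47 ± 0.07 log2 units (adjusted p = 6.73e-05), while the class I chain H2-K1 was 484 ± 22.8 CPM in KO_sg1 and 490.9 ± 11.6 CPM in WT (SD, n = 3 each) and was not called (adjusted p = 0.847).

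B-lineage genes changed in both directions. Of 19 tested genes of the pre-B receptor and B-cell surface, 6 rose and 7 fell (median 0.03, which was -0.04 with library totals), and the rises numbered 3 with library totals or without KO_sg1 replicate 3. Ly86, without a count in KO_sg1, was the deepest fall of the list. The surrogate light chain genes Vpreb1 and Vpreb2 were not called (-0.15, adjusted p = 0.297, and 0.20, adjusted p = 0.139), and Igll1, their partner, fell by 0.34 ± 0.07 log2 units (adjusted p = 0.00188). Among the co-receptors, Cd72 was 81.7, 76.1 and 92.4 CPM in KO_sg1, against 31.7, 35.2 and 31.9 CPM in WT, and rose by 1.34 ± 0.10 (adjusted p = 8.44e-08). Cd22, also an inhibitory co-receptor, fell by 0.96 ± 0.07 (adjusted p = 8.17e-08). The receptor signalling chain Cd79b fell by 0.31 ± 0.06 (adjusted p = 0.00151).

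Genes of signalling below the B-cell receptor fell more often than they rose. Of 22 such genes, 11 fell and 5 rose (median -0.20), with 2 rises with library totals. Blk, a B-cell kinase of the Src family, was 0.526, 1 and 0.892 CPM in KO_sg1, against 38.8, 41.1 and 37.1 CPM in WT, and fell by 5.57 ± 0.16 log2 units (adjusted p = 4.66e-12). Bank1, a B-cell scaffold protein, fell by 2.29 ± 0.10 (adjusted p = 4.29e-10). The kinase Syk and the exchange factor Vav1 were not called (-0.10, adjusted p = 0.137, and -0.04, adjusted p = 0.56). In the other direction, the Src-family kinases of T cells were higher: Lck was 86, 83.1 and 83.9 CPM in KO_sg1, against 18.8, 17.5 and 17.8 CPM in WT, and rose by 2.23 ± 0.06 (adjusted p = 4.26e-12), and Fyn rose by 0.89 ± 0.06 (adjusted p = 7.8e-08).

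Of 28 tested B-lineage transcription factors, 7 rose and 10 fell (60.7% called, beside 38.8% over all genes, with a median log2 fold change of -0.11). Ebf1, Tcf3 and the octamer coactivator Pou2af1 were not called (log2 fold changes -0.11, -0.02 and 0.03). Pax5 was 189, 140.4 and 217 CPM in KO_sg1, against 127, 133 and 119.7 CPM in WT, and its rise of 0.52 ± 0.17 (adjusted p = 0.023) was lost when KO_sg1 replicate 1 or 3 or WT replicate 1 or 3 was left out. Ikzf1, which encodes IKAROS, fell by 0.54 ± 0.08 (adjusted p = 0.000163) and its relative Ikzf3 rose by 0.66 ± 0.08 (adjusted p = 1.28e-05). Erg, an ETS factor of early progenitors, fell by 1.74 ± 0.10 (adjusted p = 5.83e-09), and Id3, an inhibitor of E proteins, rose by 1.15 ± 0.08 (adjusted p = 3.86e-08). Lef1, a Wnt pathway factor active in pro-B cells, rose by 0.84 ± 0.12 (adjusted p = 6.53e-05).

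Among 14 genes of V(D)J recombination and end joining, 5 rose and 2 fell (50% called, beside 38.8% over all genes). Their median was 0.06, and -0.02 with library totals, where 3 rose. The 2 that fell were the recombinase genes: Rag1 was 15.2, 16 and 13.6 CPM in KO_sg1, against 26.3, 26 and 29.4 CPM in WT (a fall of 0.86 ± 0.13 on the log2 scale, adjusted p = 0.00017), and Rag2 fell by 0.50 ± 0.13 (adjusted p = 0.00697). Dntt, the polymerase that adds bases at V(D)J joints, was 1.33, 1.3 and 1.45 CPM in KO_sg1, against 0.412, 0.167 and 0.352 CPM in WT, a rise of 2.12 ± 0.30 (adjusted p = 6.3e-05). Of 11 tested genes of mature and activated B cells, 7 fell and 1 rose (median -0.51), with 2 rises without WT replicate 3 or with DESeq2's size factors. The homing receptor Ccr7 fell by 1.16 ± 0.16 (adjusted p = 4.7e-05), Cd40 by 2.74 ± 0.67 (adjusted p = 0.00538) and Cd38 by 0.71 ± 0.09 (adjusted p = 2e-05). Cd40 was low in both groups, averaging 0.074 CPM in KO_sg1 and 0.47 CPM in WT.

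**Figure D4:**
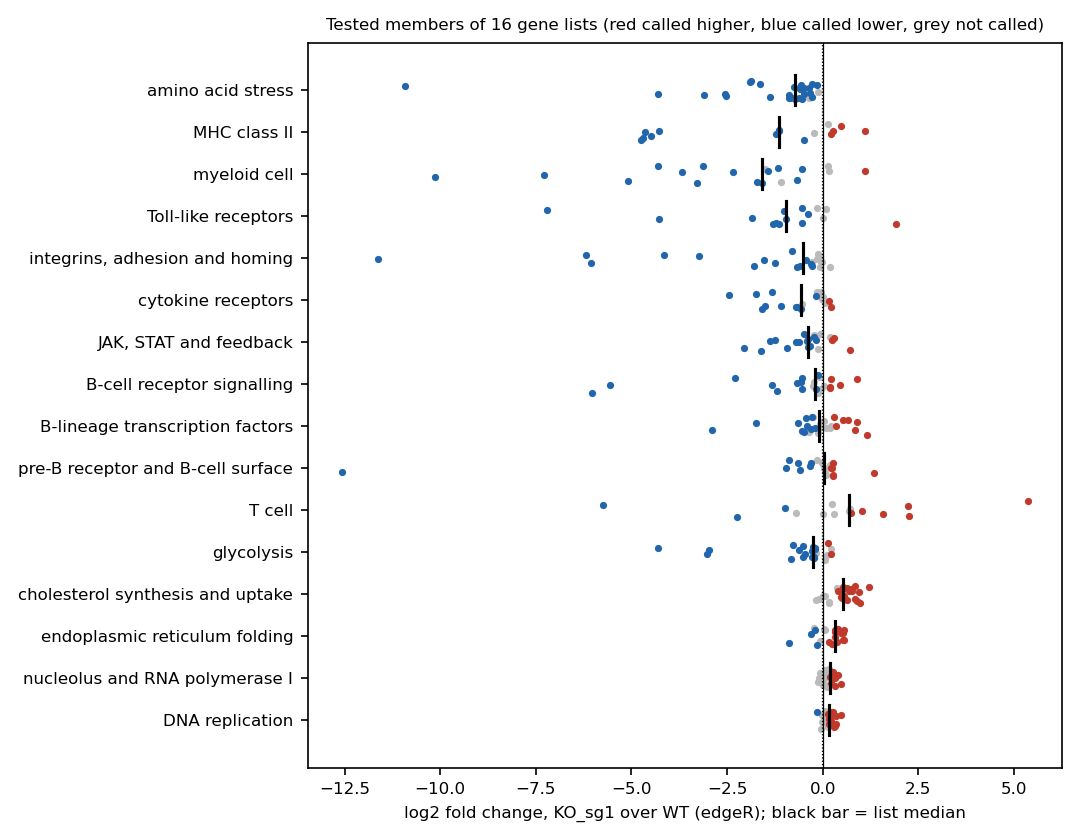
Log2 fold change of KO_sg1 over WT for the tested members of 16 gene lists, 1 point a gene (red called higher, blue called lower, grey not called), with the list median as a black bar and the median of all tested genes as a dotted line. Amino acid stress genes lie almost wholly to the left (27 of 29 fell), cholesterol genes to the right (19 of 26 rose), and B-lineage lists on both sides.

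Of 22 tested genes of integrins, adhesion and homing, 14 fell and none rose (median -0.51), with 1 rise with DESeq2's size factors. Itgb3, the integrin beta 3 chain, was 1.62, 1.36 and 1.56 CPM in KO_sg1, against 107.9, 109.7 and 110.4 CPM in WT, and fell by 6.19 ± 0.09 log2 units (adjusted p = 1.14e-14). Itgal, the alpha chain of LFA-1, fell by 1.81 ± 0.08 (adjusted p = 3.04e-10), and Cd44, a hyaluronan receptor, by 1.53 ± 0.09 (adjusted p = 1.18e-08). The integrin activators Fermt3 and Tln1 were not called (-0.04, adjusted p = 0.599, and -0.06, adjusted p = 0.337).

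Cytokine receptors and their feedback genes were also mostly lower. Of 18 tested cytokine receptor genes, 10 fell and 2 rose (median -0.56). Leaving out WT replicate 2 or using library totals gave no rise, and leaving out any other KO_sg1 or WT library gave 1. The receptor chains Il6ra, Il10ra and Crlf2 fell by 2.46 ± 0.22, 1.74 ± 0.07 and 1.5 ± 0.09 on the log2 scale (adjusted p = 6.71e-07, 1.01e-10 and 9.91e-09), and Csf2rb2, which shares reads with the near-identical common beta chain gene, by 1.59 ± 0.12 (adjusted p = 9.5e-08). Il7r, the receptor of the main growth cytokine of pre-B cells, was 34.9 ± 1.64 CPM in KO_sg1 and 30.1 ± 0.686 CPM in WT (SD, n = 3 each). Its adjusted p of 0.0486 (log2 fold change 0.22) was lost under most other settings, among them leaving out any KO_sg1 or WT library.

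Among 21 genes of JAK, STAT and their feedback, 14 fell and 3 rose (median -0.38). The STAT5 feedback inhibitors were lower: Cish was 12.4, 11.4 and 12.7 CPM in KO_sg1, against 31.4, 32.1 and 31 CPM in WT (a fall of 1.38 ± 0.08, adjusted p = 8.53e-09). Socs2 was 69.7, 78.9 and 70.4 CPM in KO_sg1, against 172, 175 and 178 CPM in WT (a fall of 1.26 ± 0.07, adjusted p = 3.66e-09), and Socs3 fell by 1.62 ± 0.06 (adjusted p = 8.19e-11). No KO_sg1 library reached a WT library for these genes. The STAT5 genes themselves fell by less, Stat5a by 0.49 ± 0.08 (adjusted p = 0.000207) and Stat5b by 0.41 ± 0.06 (adjusted p = 0.00012). The serine kinase Pim1 fell by 0.93 ± 0.09 (adjusted p = 9.35e-07), whereas Pim2 and Pim3 were not called (-0.06, adjusted p = 0.591, and -0.12, adjusted p = 0.142).

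Immediate early genes, which respond within minutes to growth signals, gave 11 falls and 3 rises among 21 (median -0.22), with 1 rise when WT replicate 1 or 2 was left out or with library totals, and 5 with DESeq2's size factors. Btg2, an antiproliferative gene, was 0.0809, 0.0589 and 0 CPM in KO_sg1, against 10.1, 10.9 and 10 CPM in WT, and fell by 7.52 ± 0.25 log2 units (adjusted p = 2.42e-11). Klf2, a quiescence and trafficking factor of lymphocytes, fell by 1.94 ± 0.08 (adjusted p = 2.03e-10), and Egr1 rose by 0.95 ± 0.12 (adjusted p = 2.6e-05). Among 13 ERK feedback genes, 4 rose and 4 fell (median 0.01, which was -0.06 with library totals), and 2 rose with library totals or when KO_sg1 replicate 1 or WT replicate 2 was left out. Dusp5, a nuclear ERK phosphatase, fell by 1.26 ± 0.07 (adjusted p = 7.16e-09), while Dusp6 was not called (0.01, adjusted p = 0.927).

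Genes named for myeloid cells were lower. Of 28 listed, 19 were tested, of which 14 fell and 1 rose (median -1.59, or -1.66 with genes at 0 counts set to their bound). Csf1r, the M-CSF receptor, was 0, 0.0295 and 0.112 CPM in KO_sg1, against 1.68, 1.31 and 1.49 CPM in WT, a ratio of 38 (95% interval 12.7 to 187). Cebpb, a bZIP factor of macrophages, fell by 4.31 ± 0.26 log2 units (adjusted p = 1.01e-08), and Csf2ra was not called (0.16, adjusted p = 0.345). Of 15 tested genes of Toll-like receptors and their signalling, 11 fell and 1 rose (median -0.96). Tlr1 had no count in KO_sg1 (at least 16.9-fold lower), Tlr9 fell by 1.21 ± 0.17 (adjusted p = 5.2e-05), the adaptor Myd88 was not called (0.01, adjusted p = 0.894), and the 1 that rose was Irak3, an inhibitor of the pathway (1.91 ± 0.11, adjusted p = 6.23e-09). Of 19 tested interferon-stimulated genes, 7 fell and none rose (36.8% called, beside 38.8% over all genes, with a median of -0.14). There was 1 rise when KO_sg1 replicate 2 was left out. Oas1a, an antiviral enzyme gene with close relatives, fell by 5.25 ± 0.29 (adjusted p = 3.66e-09), and Stat2 and Irf9 were not called (0.20, adjusted p = 0.218, and 0.03, adjusted p = 0.763).

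T-cell genes went up more often than down, without the genes that define T cells. Of 26 listed, 15 were tested, of which 6 rose and 3 fell (median 0.68). Besides Grap2 and Lck, Cd5, an inhibitory receptor also found on some B cells, was 6.47, 5.33 and 5.58 CPM in KO_sg1, against 1.2, 1.14 and 1.29 CPM in WT, and rose by 2.26 ± 0.18 log2 units (adjusted p = 2.25e-07). The costimulatory receptor Cd28 fell by 2.24 ± 0.20 (adjusted p = 8.81e-07), Thy1 had no count in KO_sg1 (at least 6.04-fold lower), and Cd2 was not called (0.00, adjusted p = 0.999). The defining markers Cd3e, Cd4, Cd8a and Bcl11b summed to 0.614 to 1.01 CPM in KO_sg1 and 0.502 to 0.821 CPM in WT, with Cd3e and Cd4 at 0 in both.

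Lists of other lineages held few tested genes. The NK receptor gene Klrb1c rose by 3.06 ± 0.42 log2 units (adjusted p = 5.7e-05), at 0.728, 1.21 and 0.725 CPM in KO_sg1 and 0.0343, 0.1 and 0.196 CPM in WT, with the defining gene Ncr1 at 0 in both. The other tested NK gene, Klrd1, was not called (0.24, adjusted p = 0.272). Of 5 tested erythroid and megakaryocyte genes 1 rose (Tfrc, the transferrin receptor, by 0.54 ± 0.10, adjusted p = 0.000911) and 1 fell (Gata1, a ratio of 39.85), with 2 falls when any 1 library was left out. Of 7 stem and progenitor genes 2 rose and 3 fell (median -0.86), with 1 rise with library totals. Lmo2, a bridging factor of early blood cells, was 23.5, 25.3 and 25.9 CPM in KO_sg1, against 75, 77.3 and 74.1 CPM in WT (a fall of 1.6 ± 0.06, adjusted p = 5.96e-11). Of 3 stromal and epithelial genes 2 fell, Krt18, a keratin without a count in KO_sg1 (at least 48.3-fold lower), and Cdh1 (a ratio of 19.0).

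Of 25 tested Notch pathway genes, 7 fell and 3 rose (40% called, beside 38.8% over all genes, with a median of -0.11). Jag2, a Notch ligand, was 1.09, 1.09 and 0.614 CPM in KO_sg1, against 25.1, 24.8 and 25.2 CPM in WT, and fell by 4.68 ± 0.17 log2 units (adjusted p = 5.5e-11). The target gene Hes5 rose by 2.14 ± 0.17 (adjusted p = 1.91e-07). Among 10 genes of the Igf axis, Igf1 was the 1 that rose and 4 fell (50% called, beside 38.8% over all genes). Their median was -0.23. Grb10, an adaptor that restrains insulin and Igf receptors, was 63.3 ± 5.49 CPM in KO_sg1 and 127.6 ± 1.29 CPM in WT (SD, n = 3 each; a fall of 1.01 ± 0.09, adjusted p = 4.5e-07), and Irs1, a receptor substrate, fell by 1.07 ± 0.16 (adjusted p = 0.000146).

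The amino acid stress genes, which the bZIP factor ATF4 switches on when amino acids run short, were nearly all lower. Of 29 tested, 27 fell and none rose (median -0.72), and their 93.1% called was the largest share among the lists of at least 10 tested genes. Atf4 itself was not called (log2 fold change -0.12, adjusted p = 0.161). It was 721.7 ± 27.6 CPM in KO_sg1 and 784 ± 23.5 CPM in WT (SD, n = 3 each). With library totals Atf4 was called lower (log2 fold change -0.20, adjusted p = 0.00345). Atf5, a related factor, was 38.9, 35.3 and 35.3 CPM in KO_sg1, against 135, 138 and 133 CPM in WT, and fell by 1.89 ± 0.07 log2 units (adjusted p = 8.19e-11). Atf3, a stress-induced repressor, was 2.55, 2.42 and 2.9 CPM in KO_sg1, against 22.8, 21.9 and 22.4 CPM in WT, and fell by 3.11 ± 0.09 (adjusted p = 7.61e-12). Cth, which makes cysteine from cystathionine, was 32.9, 40 and 33.6 CPM in KO_sg1, against 203, 201 and 211 CPM in WT, and fell by 2.53 ± 0.07 (adjusted p = 4.3e-12). In each of these 3 genes all KO_sg1 libraries lay below all WT libraries.

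The transporter of cationic amino acids Slc7a3 fell by 2.56 ± 0.06 log2 units (adjusted p = 3.09e-13). The asparagine synthetase gene Asns was 284, 317 and 293 CPM in KO_sg1, against 465, 449.6 and 448 CPM in WT, a fall of 0.61 ± 0.05 (adjusted p = 5.34e-07). Trib3, a pseudokinase induced by stress, fell by 0.86 ± 0.06 (adjusted p = 4.1e-08), and Chac1, which degrades glutathione, by 0.87 ± 0.08 (adjusted p = 5.84e-07). The cystine transporter Slc7a11 was not called (-0.35, adjusted p = 0.149), but was called lower when only KO_sg1 and WT were fitted (-0.34, adjusted p = 0.0352). The count of falls lay between 25 and 28 when any KO_sg1 or WT library was left out or another scaling was used.

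The element bound by ATF4 joins part of a C/EBP site with part of an ATF site, and was searched as TGATGNAA on both strands of the RefSeq windows. It was found in 9 of the 31 windows of the 26 matched amino acid stress genes (29.0%), against 2.42% of the windows of tested genes. The list names genes that ATF4 switches on, so this share describes the list and not the change in KO_sg1. The windows of Asns (chr6:7693160-7693459, minus strand), Trib3 (chr2:152344011-152344310, minus strand) and Chac1 (chr2:119350992-119351291, plus strand) on GRCm38.p6 are shown to let the element be compared between 3 genes that fell, with the match in capitals. It reads TGATGAAA on the shown strand in Asns and lies on the other strand in Trib3 and Chac1:
Asns: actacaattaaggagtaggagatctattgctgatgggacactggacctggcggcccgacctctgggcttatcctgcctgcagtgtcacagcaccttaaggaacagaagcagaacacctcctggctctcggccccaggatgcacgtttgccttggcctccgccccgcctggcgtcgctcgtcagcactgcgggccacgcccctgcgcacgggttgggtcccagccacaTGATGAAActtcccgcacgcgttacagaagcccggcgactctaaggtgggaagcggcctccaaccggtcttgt
Trib3: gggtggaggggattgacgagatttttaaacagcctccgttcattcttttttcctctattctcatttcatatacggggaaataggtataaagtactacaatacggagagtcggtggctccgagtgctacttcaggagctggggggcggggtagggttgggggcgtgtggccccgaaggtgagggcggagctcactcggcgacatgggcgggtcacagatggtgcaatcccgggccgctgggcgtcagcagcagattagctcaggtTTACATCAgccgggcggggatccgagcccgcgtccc
Chac1: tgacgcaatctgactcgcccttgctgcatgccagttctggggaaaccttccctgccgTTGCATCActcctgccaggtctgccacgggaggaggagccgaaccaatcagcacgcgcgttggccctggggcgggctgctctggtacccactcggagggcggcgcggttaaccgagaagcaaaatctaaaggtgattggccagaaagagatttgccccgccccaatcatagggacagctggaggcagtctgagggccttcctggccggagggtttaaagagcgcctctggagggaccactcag

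The folding genes of the endoplasmic reticulum went the other way. Of 21 tested, 13 rose and 4 fell (median 0.31), with 1 or 2 falls when KO_sg1 replicate 2 or 3 or WT replicate 1 or 3 was left out, and 2 with DESeq2's size factors. Hspa5, the chaperone BiP, was 654, 735 and 677 CPM in KO_sg1, against 479, 466 and 481 CPM in WT, and rose by 0.54 ± 0.06 log2 units (adjusted p = 9.91e-06). Manf and Creld2, secreted proteins induced by misfolding, each rose by 0.57 ± 0.07 (adjusted p = 1.94e-05 and 1.76e-05), and Xbp1, a factor that induces chaperones, rose by 0.48 ± 0.06 (adjusted p = 2.85e-05). Atf6, a further stress sensor, was 43.3, 43.2 and 41.3 CPM in KO_sg1, against 79.3, 79 and 79.2 CPM in WT, and fell by 0.89 ± 0.07 (adjusted p = 2.69e-07). For these genes the libraries of the groups did not overlap.

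Cholesterol synthesis and uptake genes rose and none fell: 19 of 26 tested (median 0.54). Without KO_sg1 replicate 2, 1 gene was called lower. Lss, which closes the sterol ring system, was 129, 127 and 131 CPM in KO_sg1, against 56.3, 54.2 and 56.9 CPM in WT, and rose by 1.21 ± 0.05 log2 units (adjusted p = 1.02e-10). Idi1 and Mvd, enzymes of isoprenoid formation, each rose by 0.96 (SE 0.07 and 0.09, adjusted p = 1.23e-07 and 8.08e-07). Fdps, which makes farnesyl diphosphate, rose by 0.77 ± 0.08 (adjusted p = 1.79e-06). The controlling factors Srebf2 and Srebf1 were not called (0.15, adjusted p = 0.123, and 0.01, adjusted p = 0.941). Srebf2 was called higher with DESeq2's test (adjusted p = 0.0428), with only KO_sg1 and WT fitted (0.0405) and without KO_sg1 replicate 3 (0.0482). A sterol response element of the form TCACNCCAC was in 0 of the 26 windows of the 18 matched genes, against 1.14% of those of tested genes, and the E-box CACGTG in 6 (23.1%), against 10.1%.

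Of 10 fatty acid synthesis genes, 3 rose and 5 fell (median -0.19). Fasn rose by 0.55 ± 0.05 log2 units (adjusted p = 4.79e-07) and Elovl6, a chain elongase, by 0.60 ± 0.07 (adjusted p = 1.26e-05). Acly was not called (0.15, adjusted p = 0.0907), but was called higher with DESeq2's size factors, DESeq2's test or only KO_sg1 and WT fitted. Of 22 glycolysis genes, 16 fell and 2 rose (median -0.26), and no gene rose when KO_sg1 replicate 1 or 2 or WT replicate 2 or 3 was left out, or with library totals, and 1 when KO_sg1 replicate 3 or WT replicate 1 was. Hk1, a hexokinase, was 5.09, 7.02 and 5.47 CPM in KO_sg1, against 47.9, 45.7 and 45.9 CPM in WT, and fell by 2.97 ± 0.11 (adjusted p = 5.23e-11). The lactate exporter Slc16a3 fell by 3.02 ± 0.30 (adjusted p = 2.13e-06), the glucose transporter Slc2a3 by 0.82 ± 0.08 (adjusted p = 8.97e-07) and Aldoa by 0.52 ± 0.07 (adjusted p = 7.19e-05). Of 7 pentose phosphate genes 2 rose and none fell (28.6% called, beside 38.8% over all genes, with a median of -0.01). There was 1 rise when KO_sg1 replicate 1 or any WT library was left out, and 1 rise and 2 falls with library totals.

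Ccnd1, cyclin D1, was 18.4, 21.6 and 18.1 CPM in KO_sg1, against 254, 256 and 255 CPM in WT, with no overlap, and fell by 3.71 ± 0.08 log2 units (adjusted p = 1.78e-13). Cyclin D2 (Ccnd2) fell by 0.64 ± 0.08 (adjusted p = 2.13e-05), while cyclin D3 (Ccnd3), at 2763 ± 69.2 CPM in KO_sg1 and 2877 ± 37.8 CPM in WT (SD, n = 3 each), was not called (-0.06, adjusted p = 0.415). Myc fell by 0.38 ± 0.05 (adjusted p = 3.02e-05), and of the 23 tested genes of Myc and G1 control 9 fell and 4 rose (median -0.12), with 2 rises without KO_sg1 replicate 1 and none with library totals. Mitosis genes gave 2 rises and 3 falls among 20 (25% called, beside 38.8% over all genes, with a median of 0.00). Of these, 1 rise was left when any KO_sg1 or WT library was dropped, and 1 fall when any but KO_sg1 replicate 2 was. There was 1 rise with library totals and 1 fall with DESeq2's size factors. The proliferation marker Mki67 was not called (0.07, adjusted p = 0.42).

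DNA replication genes rose in 15 of 26 cases with 1 fall (median 0.18), but 5 rose with library totals, and there was no fall with DESeq2's size factors or when any KO_sg1 library or WT replicate 1 or 2 was left out. Rfc3, a clamp loader subunit, rose by 0.49 ± 0.06 log2 units (adjusted p = 1.65e-05), and Rrm1 and Rrm2 were not called (0.11, adjusted p = 0.167, and 0.07, adjusted p = 0.358). Among 16 tested p53 targets, 8 fell and 3 rose (median -0.25): besides Btg2, Sesn2, a stress sensor for growth signalling, fell by 1.39 ± 0.12 (adjusted p = 3.25e-07), and Cdkn1a was not called (-0.15, adjusted p = 0.0772). Among 15 Bcl2 family genes, 6 fell and 1 rose (46.7% called, beside 38.8% over all genes, with a median of -0.11). The BH3-only death genes Bcl2l11, Bbc3 and Bmf fell by 1.12 ± 0.12, 1.05 ± 0.09 and 0.99 ± 0.13 (adjusted p = 3.5e-06, 2.72e-07 and 3.27e-05), Bok rose by 1.55 ± 0.11 (adjusted p = 7.65e-08), and Mcl1 was not called (-0.11, adjusted p = 0.101).

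Genes of the partners ascribed to PHF6 changed by small amounts. Of 14 NuRD genes, 3 rose and 1 fell (28.6% called, beside 38.8% over all genes). Their median was -0.01, and 0.04 with DESeq2's size factors, and 1 rose with library totals. Mta1 fell by 0.32 ± 0.06 log2 units (adjusted p = 0.00128), and Mbd2 rose by 0.31 ± 0.05 (adjusted p = 0.000454). Mta3 was 25.6 ± 0.538 CPM in KO_sg1 and 26.5 ± 0.59 CPM in WT (SD, n = 3 each) and was not called (adjusted p = 0.55). Of 24 tested genes of the nucleolus and RNA polymerase I, 13 rose and none fell (median 0.20), with 1 fall with library totals. Polr1b, a subunit of the polymerase that makes ribosomal RNA, was 91.9, 87.5 and 97.5 CPM in KO_sg1, against 75.4, 73.1 and 71.4 CPM in WT (a rise of 0.33 ± 0.05, adjusted p = 0.000248), and Nop58, a guide-RNA ribonucleoprotein, rose by 0.41 ± 0.05 (adjusted p = 1.59e-05). The abundant nucleolar proteins Npm1 and Ncl were not called (-0.11, adjusted p = 0.16, and 0.12, adjusted p = 0.197). Of 38 polycomb, DNA methylation and PHD finger genes, 4 rose and 8 fell (31.6% called, beside 38.8% over all genes). Their median was -0.03, and 0.01 with DESeq2's size factors. The de novo methyltransferase Dnmt3b rose by 1.22 ± 0.09 (adjusted p = 1.26e-07) and Tet2, which oxidises methylcytosine, fell by 0.64 ± 0.14 (adjusted p = 0.00184), while Dnmt1 and Uhrf1 were not called (-0.02, adjusted p = 0.703, and 0.01, adjusted p = 0.852).

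The counts for short housekeeping genes depended on single libraries and on the scaling. Mitochondrial ribosomal proteins were called in 46.1% of cases, but cytosolic ribosomal proteins in 18.1%, oxidative phosphorylation genes in 22.8% and histone genes in 15.3%, beside 38.8% over all genes. Of 76 mitochondrial ribosomal protein genes 35 rose and none fell (median 0.20), but 17 rose with library totals, 11 without KO_sg1 replicate 3 or without WT replicate 3, 16 without KO_sg1 replicate 1 or without WT replicate 1, and 22 without WT replicate 2. Without KO_sg1 replicate 2, 1 was called lower, and 2 with library totals. Mrpl52 rose by 0.71 ± 0.14 log2 units (adjusted p = 0.000941). Of 83 cytosolic ribosomal protein genes 14 rose and 1 fell (median 0.21), with 28 rises under DESeq2's size factors, 4 without KO_sg1 replicate 3 or WT replicate 3, 7 without KO_sg1 replicate 1 or WT replicate 1, and 9 without WT replicate 2. The fall was lost without KO_sg1 replicate 1 or any WT library, and reads of these genes can be shared with their many pseudogenes. Rpl30 rose by 0.46 ± 0.08 (adjusted p = 0.000287).

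Of 79 nuclear genes of oxidative phosphorylation 15 rose and 3 fell (median 0.17), with 25 rises under DESeq2's size factors, 8 without KO_sg1 replicate 3 and 9 without WT replicate 3, and 8 falls with library totals. The falls included the tissue-restricted cytochrome oxidase subunits: Cox6a2 was 1.62, 1.39 and 1.17 CPM in KO_sg1, against 34.6, 36.2 and 32.6 CPM in WT (a fall of 4.61 ± 0.10 on the log2 scale, adjusted p = 3.2e-13), and Cox4i2 fell by 3.32 ± 0.27 (adjusted p = 2.72e-07). Of 59 tested replication-dependent histone genes 9 rose and none fell (median 0.92), with 5 rises without WT replicate 2 and 26 without WT replicate 3, and 1 fall with library totals or without KO_sg1 replicate 3 or WT replicate 2. Histone messages of this kind lack a poly(A) tail, and Rpph1, the RNA of RNase P, which lacks one too, was 265, 221 and 313 CPM of the total in KO_sg1, against 126, 133 and 142 CPM in WT. Its part in the histone values was not tested.

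Some changed genes were neighbours. Among 12246 tested genes with a chromosome, 6 runs of at least 4 neighbouring tested genes all changed at least 2-fold the same way, 5 of them lower. No expected number of runs was computed. The longest, of 5 genes on chromosome 5, held mostly gene models without a standard symbol and a pseudogene. The run on chromosome 14 also held such gene models. On chromosome 7 the integrin genes Itgam, Itgax and Itgad lay beside Cox6a2. Itgam, the myeloid alpha M chain, was 0.364, 0.413 and 0.279 CPM in KO_sg1, against 4.88, 4.49 and 4.65 CPM in WT. It fell by 3.66 ± 0.15 log2 units (adjusted p = 2.03e-10), and Itgad had a ratio of 51.6 (95% interval 8.90 to 2074). Itgax had 1 count in KO_sg1 and 14 in WT (ratio 12.7, 95% interval 1.93 to 536), and its call was lost without KO_sg1 replicate 1 or WT replicate 1. On chromosome 11 the chemokine genes Ccl3 and Ccl6 fell by 4.19 ± 0.20 and 1.42 ± 0.15 (adjusted p = 7.86e-10 and 3.79e-06), and Ccl4 had a ratio of 62.5 (17.0 to 521). On chromosome 17 the cholesterol exporter Abcg1 fell by 1.31 ± 0.09 (adjusted p = 2.51e-08), and Tmprss3 and Rsph1 had no count in KO_sg1 (at least 56.5-fold and at least 16.3-fold lower). The run of rises, on chromosome 15, joined Grap2 with Enthd1 (4.15 ± 0.67, adjusted p = 0.000236) and the calcium channel gene Cacna1i (2.90 ± 0.55, adjusted p = 0.000915), both under 2 CPM in KO_sg1. Outside the Y chromosome the median log2 fold change of a chromosome lay between -0.07 on X and 0.02 on chromosome 17.

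Promoter windows of strongly changed genes held fewer CpG than those of all tested genes, which were not matched for level. The median was 14 over the 261 windows of the 197 matched genes that were at least 10-fold lower. It was 6 over the 20 windows of the 15 matched genes that were at least 10-fold higher, and 20 over the 11013 windows of tested genes. Of the 291 falls of at least 10-fold, 225 were of genes under 5 CPM in WT, and the part of level was not tested. These are descriptions of the windows, with no test.

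The guides were compared directly, because both comparisons with WT share the WT libraries. Between KO_sg1 and KO_sg4, 3359 genes differed (27.2%), 1659 higher (13.4%) and 1700 lower (13.8%) in KO_sg1, of which 771 (6.25%) by at least 2-fold (3.18% of the tested genes higher and 3.07% lower). Of the 4784 genes called between KO_sg1 and WT, 1862 (38.9%) also differed between the guides, and of the 1198 changed at least 2-fold, 625 (52.2%) did. The same KO_sg1 libraries stand in both contrasts, which favours such overlap, so these shares are descriptions. Phf6 RNA itself differed: it was 3.40 ± 0.288 CPM in KO_sg1, and in the libraries labelled KO_sg4 it averaged 36.6 CPM, in KD 8.79 CPM and in WT 34.5 ± 0.751 CPM (SD, n = 3). KO_sg4 was thus labelled Null with Phf6 RNA at the WT level, and RNA cannot show whether a guide has disrupted the protein.

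Some genes called between KO_sg1 and WT did not pass the test between the guides. The difference between KO_sg1 and KO_sg4 was 0.11 ± 0.11 on the log2 scale for Scn4b (adjusted p = 0.46), -0.29 ± 0.13 for Megf10 (adjusted p = 0.11), -0.31 for H2-Eb1 (adjusted p = 0.6) and -0.06 for Cd44 (adjusted p = 0.66). A p above the threshold does not show that the guides act alike. Of the 15 class II genes 8 were called between the guides, 4 higher and 4 lower in KO_sg1, among them Cd74 (-0.45 ± 0.08, adjusted p = 0.0013) and Ciita (-1.77 ± 0.58, adjusted p = 0.037). Ly86 had no count in either knockout. Of the amino acid stress genes 23 of 29 were higher in KO_sg1 than in KO_sg4 and none lower, so that Cth, for example, averaged 35.5 CPM in KO_sg1, 14.8 CPM in KO_sg4, 121 CPM in KD and 205 CPM in WT.

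Other genes differed strongly between the guides. Tfpi, an inhibitor of blood coagulation, averaged 0.547 CPM in KO_sg1, 62.5 CPM in KO_sg4, 107 CPM in KD and 54.0 CPM in WT, and was lower in KO_sg1 than in KO_sg4 by 7.03 ± 0.18 (a log2 difference of -7.03, adjusted p = 5.4e-12). Ryk, a Wnt receptor, averaged 0.0801 CPM in KO_sg1, 27.5 CPM in KO_sg4, 15.1 CPM in KD and 4.19 CPM in WT (a log2 difference of -8.38 ± 0.17, adjusted p = 5.8e-13). Rag1 averaged 14.9 CPM in KO_sg1, 85.1 CPM in KO_sg4, 58.6 CPM in KD and 27.2 CPM in WT, so that it lay below WT in KO_sg1 and above it in KO_sg4, and the guides differed by -2.51 ± 0.13 (adjusted p = 5e-09). Between KO_sg1 and KD, 9927 genes differed (80.5%), 4784 of them higher (38.8%) and 5143 lower (41.7%) in KO_sg1.

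**Figure D5:**
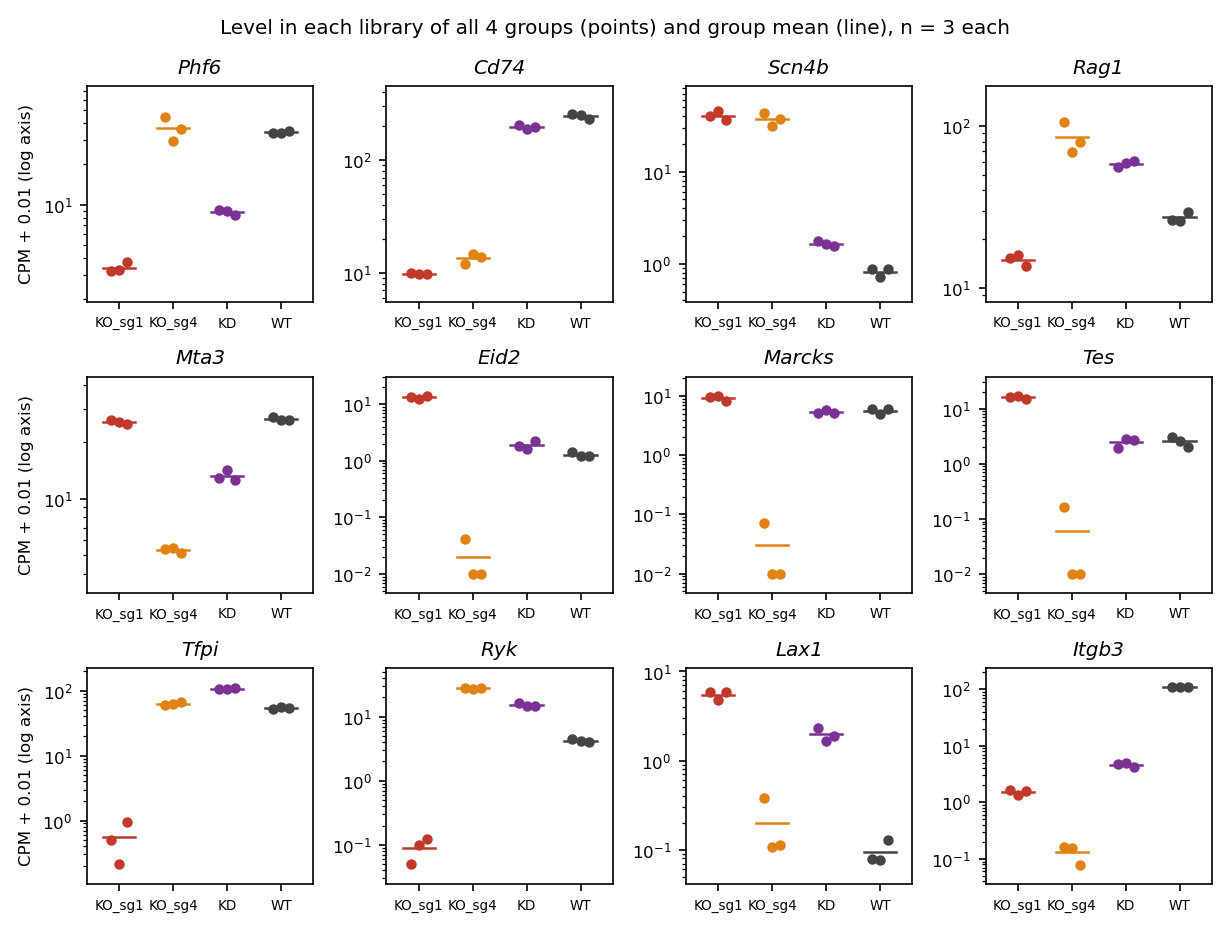
CPM plus 0.01 on a log axis for 12 genes in the 3 libraries of each group (KO_sg1, KO_sg4, KD and WT), with points as libraries and lines as means. Scn4b averages 40.6 CPM in KO_sg1 and 37.5 CPM in KO_sg4, and Cd74 averages 9.80 CPM in KO_sg1 and 13.4 CPM in KO_sg4. Tfpi is low in KO_sg1 alone, and Eid2, Marcks and Tes are near 0 in KO_sg4. Ryk averages 0.0801 CPM in KO_sg1, 4.19 CPM in WT, 15.1 CPM in KD and 27.5 CPM in KO_sg4.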

How the data were processed

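An RNeasy kit gave the RNA and a TruSeq mRNA kit the libraries, per the labels' protocols. The authors deposited estimated counts per gene from RSEM (expected counts) for all 12 libraries, and the submitters' processing notes name RSEM 1.2.12, Bowtie 1.0.1 and the mm9 build. Annotation, strandedness and read length were not given in the sources used here, so reads of overlapping genes and near-identical copies may be split uncertainly. The deposited estimated counts, rounded, were filtered by filterByExpr with a minimum count of 10, and edgeR 4.0.16 (R 4.3.3) fitted 4 group means over all 12 libraries with TMM factors and the quasi-likelihood test, two-sided. P-values were adjusted by Benjamini-Hochberg over 12335 genes, and a gene was called below 0.05. Fold changes are log2 values of KO_sg1 over the group named, a standard error is the fold change divided by the square root of F, and CPM were scaled by TMM factors (0.88 to 1.14). Genes at 0 counts in a group got a bound from 3 counts over the group, and genes with 1 to 3 counts a ratio with an exact 95% binomial interval. Promoter windows came from RefSeq tables of GRCm38.p6, matched by symbol for 8689 of 12335 genes, and chromosomes were found for 12246.

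Named genes were the 15 highest and 15 lowest log2 fold changes against WT and the 8 highest and 8 lowest against KO_sg4 (called, at least 5 CPM in a group), up to 4 called and up to 2 not called members of each list, and 13 preset genes, in all 269. A further 46 were named after their values were seen, among them H2-Eb1, Itgal, Cd44, Cth, Atf5, Asns, Trib3, Chac1, Igll1, Cd79b, Ikzf1, Ikzf3, Lef1, Fyn, Fdps, Myc, Pim1, Egr1, Stat5a, Stat5b, Aldoa, Xbp1, Ctss, Cd180, Tlr9, Plxdc2, 6330403A02Rik and the genes of the neighbouring runs. A few named genes are not reported here. The members and gene lists were chosen with earlier results of these data known, so list counts are descriptions and no list was tested. The code was tested on simulated data. Replicate numbers did not pair the libraries: correlations of their deviations between groups lay between -0.238 and 0.101 over 18 pairs. Alternatives tried were DESeq2's size factors, library totals, DESeq2 1.42.0, limma 3.58.1 (voom), other count filters, Rn45s left out, only the groups compared, a replicate block and each library left out.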

Additional observations from a re-analysis of the deposited data

Results flagged for a closer look

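Among the genes named by rule, 120 of 269 were called between KO_sg1 and KO_sg4, which both stand against the same WT libraries. The 24 results below differed by at least 2 on the log2 scale and averaged 5 CPM or more in KO_sg1 or KO_sg4, by edgeR's test of the difference between the guides. Of these, 14 were higher and 10 lower in KO_sg1. The groups of 3 libraries are too small for a search for single outlying libraries. The 8 genes highest and 8 lowest between the guides were chosen for this difference, so their values are a description.

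Genes lower in KO_sg1 than in KO_sg4 were led by Fam20c, a kinase of secreted proteins, which had 1 count in KO_sg1 and a ratio of 571.5 (95% interval 102.2 to 22610), and Ank, whose ratio was 129.9 (44.1 to 632). The log2 differences were -8.38 for Ryk, -7.03 for Tfpi, -6.98 for the ion channel relative Ano10, -6.86 for the neural factor Zic2, -6.81 for the receptor substrate Eps8 and -6.31 for the carbonyl reductase Cbr1. Phf6 differed by -3.45 and Rag1 by -2.51. Zic2 was not called between KO_sg1 and WT (adjusted p = 0.0538).

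Genes higher in KO_sg1 than in KO_sg4 included Eid2, with a ratio of 1064 (190.5 to 42070), Marcks, an actin-regulating kinase substrate, with 383.5 (105.8 to 3173), and Pak1, a kinase below Rac and Cdc42, with 303.6 (103.5 to 1475). The log2 differences were 7.95 for Tes, 7.74 for Pcdhgc3, 7.18 for Tnnt1, 7.05 for Tnnt2, 6.64 for Sbf2, 4.70 for Lax1, 4.44 for Rgs16, 4.13 for Ggnbp1, 3.90 for Gimap3, 2.37 for Cd5 and 2.26 for Mta3. Pak1, Sbf2 and Mta3 were not called between KO_sg1 and WT (adjusted p = 0.171, 0.0732 and 0.55), and their KO_sg4 level was near 0 for Pak1 and Sbf2 and 5.33 CPM for Mta3.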

How the results depend on the processing

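Among the named genes no called result reversed its direction in an alternative run for it, and the signs of the other called genes were not compared. Calls of named genes were gained and lost: 19 and 0 with only the groups compared, 12 and 8 with library totals, and 4 and 17 without KO_sg1 replicate 3. Genes not called above became called with library totals (Vpreb1, Npm1, Pim3, Cdkn1a and Ccnd3 among them) or with only the groups compared (Vpreb2 and Abl1 among them). The balance of the calls against WT did change sides. With TMM factors 2082 were higher and 2702 lower, with DESeq2's size factors 2669 and 2407, and with DESeq2's own test 2746 and 2396. Between KO_sg1 and WT, 4784 genes were called, and the other settings gave 4264 (replicate block, where 1802 were higher and 2462 lower) to 5731 (only the groups compared). DESeq2 gave 5142 and voom 4775, the count without a filter was 4827, with a minimum count of 50 it was 4358, and without Rn45s 4881. With library totals the genes higher than WT numbered 1326, against 2082. Leaving out 1 KO_sg1 or WT library gave 3793 to 4694 calls against WT (1505 to 2037 higher, 2245 to 2657 lower, 1166 to 1221 of at least 2-fold). Between KO_sg1 and KO_sg4 the numbers moved further. Library totals gave 1053 higher and 2838 lower, against 1659 and 1700, with a median of all genes of -0.125, against -0.01. The fit on these groups alone gave 1595 calls (811 higher, 784 lower), against 3359. Leaving out 1 library gave 2279 to 5329 calls (1154 to 2626 higher, 1125 to 2703 lower, 717 to 880 of at least 2-fold), the most without KO_sg4 replicate 2. Against KD, leaving out 1 library gave 9574 to 9851 calls. The replicate numbers did not pair the libraries, and the replicate block gave 2730 calls against KO_sg4 and 9747 against KD. The causes of these shifts were not tested. Depth limits the genes under 1 CPM, where 3 counts are 0.0833 to 0.147 CPM.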
